A study of Mus musculus with 9 samples.

Results

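The 30 genes described here encode the enzymes that build cholesterol, the SREBP proteins that control them and the enzymes that build long-chain fatty acids. They were chosen by symbol, as 18 genes of sterol synthesis, 6 of SREBP control and sterol transport and 6 of fatty acid synthesis, out of the 55416 genes counted in the lens of mouse embryos at E16.5. All 30 were present in the count tables and all 30 passed the filter on low counts, which kept 14903 genes for testing. The purpose of the comparison was to find which transcripts of the lens depend on ATF4, a transcription factor of the integrated stress response.

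Lens RNA was sequenced from 5 wildtype and 4 *Atf4* null embryos, with 1 library made from the pair of lenses of each embryo. The null embryos were homozygous for the B6;129-Atf4tm1Tow allele, in which a neomycin cassette takes the place of exons 3 and 4 of *Atf4* in every cell of the body, so the lens was not the only tissue without ATF4. Null and wildtype embryos came from matings of heterozygotes on a mixed C57Bl/6 and 129 background, and the colony was not typed for the deletion in the lens gene *Bfsp2* that 129 strains carry. Both sexes were present in both genotypes.

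Cells make cholesterol from acetyl-CoA by way of mevalonate, isoprenoid diphosphates and squalene, and the same acetyl-CoA pool feeds the synthesis of fatty acids. The SREBP transcription factors are held in the endoplasmic reticulum by SCAP and the INSIG proteins when sterols are plentiful, and are carried to the Golgi, cut and sent to the nucleus when sterols are scarce. The fiber cells of the lens build plasma membranes that are unusually rich in cholesterol, and inherited or drug-induced loss of sterol synthesis is a known cause of cataract.

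The libraries held 7440807 to 8906996 counts assigned to genes, and the 30 genes took 0.205% to 0.312% of them. *Atf4* itself was at 119 to 155 CPM (counts scaled to a common library size) in wildtype lenses and at 0.582 to 10.6 CPM in the null lenses, as the labels have it. Wildtype replicate 5 stood apart, with 1.08% of its counts in a list of skeletal muscle markers and 1.49% in a list of mesenchyme markers, against at most 0.0188% and 0.0577% in the other 8 libraries. The mesenchyme share also differed by genotype, at 0.0199% to 0.0577% in the null libraries and 0.00382% to 0.00845% in wildtype replicates 1 to 4. Pigment cell markers took 0.00398% to 0.0116% in null, 0.00186% to 0.00397% in wildtype replicates 1 to 4 and 0.0148% in wildtype replicate 5. Retina markers were higher in the null lenses: all 9 tested had a log2 fold change above 0 (median 1.10), 4 were called, and their share of counts was 0.0201% to 0.067% against 0.0119% to 0.0207% in wildtype, highest in null replicate 1. Of 8 lens epithelium markers, 7 were lower in the null lenses and their share of counts was 0.111% to 0.16% against 0.209% to 0.242% in wildtype, with all 8 detected in both genotypes. Of 11 tested lens fiber markers 10 had a log2 fold change below 0 (median -0.47) and 4 were called lower, of 6 blood cell markers 6 were below 0 (median -0.99) and 1 was called, and of 7 vascular endothelium markers 7 were below 0 (median -0.68) and 4 had an unadjusted p under 0.05 in edgeR, none of them past the adjusted threshold. All 5 adipocyte markers had no count in any library. In RNA from whole lenses, fewer cells of a type cannot be told apart from less RNA per cell.

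All 18 genes of sterol synthesis had a log2 fold change (null over wildtype) below 0, with a median of -0.56, though 2 of them were not stable in sign: *Fdps* was at 0.06 with library size in place of TMM factors and at 0.29 and 0.22 without null replicates 3 and 4, and *Ebp* was at 0.00 and 0.06 without wildtype replicates 2 and 3. Over all genes tested 49.9% were below 0 and the median was 0.00. Of the 6 fatty acid genes 4 were below 0, with a median of -0.32, and of the 6 control genes 4, with a median of -0.18. Of the 18, 5 were lower at an adjusted p below 0.05 (*Idi1*, *Fdft1*, *Cyp51*, *Msmo1* and *Dhcr7*) and none was higher. Each adjusted p here comes from the quasi-likelihood test of edgeR, corrected by the method of Benjamini and Hochberg over the 14903 genes, of which 3.67% were called lower, 2.23% higher and 5.9% in either direction. An unadjusted p below 0.05 with a lower level was found for 9 of the 18, against 10.2% of all genes. It was also found for 3 of the 6 fatty acid genes and 2 of the 6 control genes. Among the 6 control genes 1 was lower (*Insig1*), among the 6 fatty acid genes 1 was lower (*Acaca*), and none of either was higher. The count of 5 sterol genes became 1 without null replicate 2 or 3 and 3 without wildtype replicate 1, 2 or 3. It became 8 without wildtype replicate 5 and 2 with library size in place of TMM factors. Over all genes, the share called in either direction was 3.41% and 3.64% without null replicates 2 and 3. That share was 3.85% to 4.08% without wildtype replicate 1, 2 or 3, 8.33% without wildtype replicate 5 and 8.25% with library size. The largest change of the 30 was in *Insig1*, at 0.384 of its wildtype level, and the next in *Msmo1*, at 0.481.

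**Figure D1:**
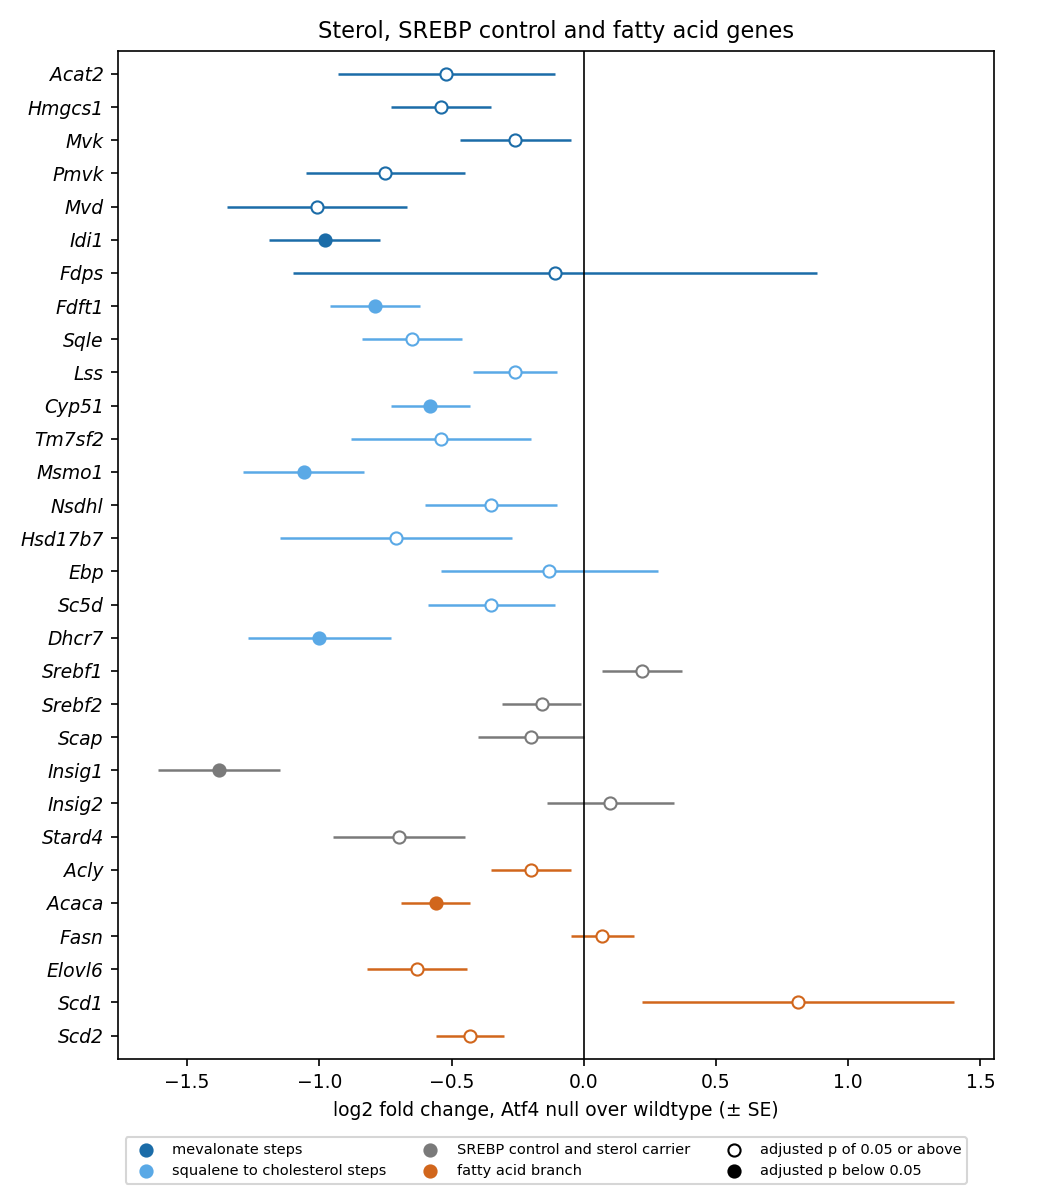
Log2 fold change of each of the 30 genes, *Atf4* null over wildtype, on the horizontal axis, with bars of ± 1 standard error and filled points for an adjusted p below 0.05. The 18 sterol genes (blue) lie left of 0, from -1.06 to -0.11, with 5 filled (*Fdps* moves to 0.06 with library size in place of TMM factors), while the 6 fatty acid genes (orange) run from -0.63 to 0.81 with 1 filled.

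The DNA before the start of 3 genes shows what these promoters share in sequence, and where they differ. *Hmgcs1* stands for the entry to the mevalonate steps, *Insig1* is the gene that fell most, and *Fasn* is a fatty acid gene that was not called. SREBPs bind sterol regulatory elements next to sites for NF-Y, a factor that recognises CCAAT boxes. Capitals mark matches, on either strand, to CCAAT (which reads ATTGG when it lies on the other strand), to the short sterol regulatory element TCACNCCAC or to the E-box CACGTG. The sequences are RefSeq's 5′ to 3′, from the strand of the gene, up to the start in its table for GRCm38.p6 or up to the gene's earlier GENCODE exon. Each matched a single place in GRCm39: *Hmgcs1* at chr13:120151637-120151886 on the plus strand, *Insig1* at chr5:28276160-28276314 on the plus strand and *Fasn* at chr11:120715403-120715623 on the minus strand. The *Hmgcs1* and *Insig1* stretches lie outside the genes as GENCODE draws them, and the *Fasn* stretch is intronic in GENCODE, whose *Fasn* gene (chr11:120696672-120715995) begins further upstream.
Hmgcs1: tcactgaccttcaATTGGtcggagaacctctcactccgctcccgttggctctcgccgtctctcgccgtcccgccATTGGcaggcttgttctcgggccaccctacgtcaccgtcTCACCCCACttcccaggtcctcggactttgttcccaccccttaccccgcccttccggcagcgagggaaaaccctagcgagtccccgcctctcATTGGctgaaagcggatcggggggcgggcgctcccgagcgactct
Insig1: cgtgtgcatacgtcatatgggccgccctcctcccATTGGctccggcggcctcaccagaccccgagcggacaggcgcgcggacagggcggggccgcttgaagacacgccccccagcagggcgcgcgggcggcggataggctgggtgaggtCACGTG
Fasn: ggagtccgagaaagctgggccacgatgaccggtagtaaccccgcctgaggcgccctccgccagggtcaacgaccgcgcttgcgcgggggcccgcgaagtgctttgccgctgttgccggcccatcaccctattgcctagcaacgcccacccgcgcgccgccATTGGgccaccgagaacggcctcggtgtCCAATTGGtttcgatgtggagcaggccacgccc

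The *Hmgcs1* stretch holds 3 CCAAT boxes and 1 short sterol regulatory element, TCACCCCAC, which starts 137 bases before the gene's start. The *Insig1* stretch holds 1 CCAAT box and 1 E-box, and the *Fasn* stretch 3 CCAAT boxes, of which 2 overlap each other in CCAATTGG. The RefSeq table gave windows of 300 bases (250 before and 50 after the start) for 24 of the 30 genes, with no entry for *Fdps*, *Fdft1*, *Sqle*, *Stard4*, *Scd1* and *Scd2*. A CCAAT box lay in the windows of 14 of the 15 sterol genes in the table, *Acat2* being the exception, of 4 of 5 control genes and of 2 of 4 fatty acid genes, *Fasn* and *Acly*. Such a window was present for 41.1% of all genes with an entry. Some genes had more than 1 window. Counted by window, the box was in 14 of 18 for sterol genes, 5 of 10 for control genes and 2 of 4 for fatty acid genes. The share of all windows was 37.4%. The short sterol element was in 1 of the 32 windows of these genes, against 1.24% of all windows, and its longer classical form, which overlaps it, was in none, against 0.0913%. The E-box was found for *Hsd17b7*, *Dhcr7*, *Sc5d*, *Insig1* and *Scap*, in 6 of the 32 windows (18.8%), against 7.15% of all windows. The ATF4 element TGATGCAA was in 1 window, of *Insig2*, 178 bases before the start, against 0.895% of all windows. A match is a description of the letters and not a site shown to be bound.

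Among the 7 enzymes of the mevalonate steps, 1 was lower at an adjusted p below 0.05, against 3.67% of all genes. The median log2 fold change of the 7 was -0.54. *Idi1* (isopentenyl diphosphate isomerase, chr13:8935537-8942487) makes the reactive isoprenoid that chains are built from. Its level was 37.4, 40.5, 36.3, 34.3 and 25.9 CPM in wildtype replicates 1 to 5 and 21.8, 12.5, 17.2 and 19.4 CPM in null replicates 1 to 4, so every null library lay below every wildtype library. The null level was 0.509 of wildtype, a log2 fold change of -0.98 ± 0.21 (SE; adjusted p = 0.014). *Idi1* also passed in each of the 19 alternative analyses, with adjusted p between 0.000461 and 0.044. The annotation holds 5 pseudogenes named after *Idi1*, and by HTSeq's default a read that aligned equally well to them is not counted.

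*Hmgcs1*, the synthase that makes HMG-CoA, was the most abundant sterol enzyme per length of transcript, at 31.1 ± 5.42 FPKM (SD, n = 5) in wildtype and 21.3 ± 6.27 (SD, n = 4) in null lenses. Its libraries were at 179, 189, 160, 175 and 116 CPM in wildtype and at 156, 116, 99.3 and 78 CPM in null. The groups met at wildtype replicate 5 and null replicates 1 and 2, and the log2 fold change of -0.54 ± 0.19 had an adjusted p of 0.125. Without wildtype replicate 5 the adjusted p was 0.0232, without null replicate 1 it was 0.0235, and without any other single library it was 0.198 to 0.263. *Hmgcs1* passed under 4 of the 19 alternatives tried, which changed the tool, the scaling, the filter, the model or the libraries. *Mvd*, the decarboxylase that yields isopentenyl diphosphate, also overlapped at wildtype replicate 5. It was at 26.6, 13.7, 21.4, 25.8 and 9 CPM in wildtype and 13.3, 7.2, 7.46 and 10.3 CPM in null, with a log2 fold change of -1.01 ± 0.34 and an adjusted p of 0.106. Leaving out wildtype replicate 5 gave 0.016 and leaving out any other library 0.078 to 0.24, and *Mvd* passed under 4 of the 19 alternatives. Long noncoding RNA genes on the opposite strand share 20.5% of the exon length of *Mvd* and 10.6% of that of *Hmgcs1*, and how strand was handled in the counting is not given in the sources used here.

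The other mevalonate genes did not pass. The kinase gene *Pmvk* had a log2 fold change of -0.75 (95% interval -1.39 to -0.10, adjusted p = 0.181), and the kinase gene *Mvk*, which acts before it, of -0.26 (-0.71 to 0.18). *Acat2*, the cytosolic thiolase that opens the pathway, divided the null lenses: replicates 2 and 4 were at 3.48 and 3.35 CPM and replicates 1 and 3 at 12.9 and 12.8 CPM, inside the wildtype range of 10.1 to 14.6 CPM. *Fdps*, the synthase of farnesyl diphosphate, was counted at only 0.986 ± 0.462 CPM (SD, n = 5) in wildtype. Its log2 fold change of -0.11 spans an interval from -2.24 to 2.02, so no difference was detectable at so low a count. The cause of the low count was not tested.

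Of the 11 enzymes from squalene to cholesterol, 4 were lower at an adjusted p below 0.05, against 3.67% of all genes. The median log2 fold change of the 11 was -0.58. *Msmo1* (methylsterol monooxygenase, chr8:65170603-65186830), which acts after *Cyp51* in the removal of methyl groups from the sterol rings, changed most. It was at 45.1, 44.3, 55.2, 42.1 and 45.3 CPM in wildtype and at 36.1, 18.5, 15.8 and 18.6 CPM in null. Null replicate 1 was the closest to wildtype, but the groups did not overlap. Its log2 fold change of -1.06 ± 0.23 passed the test (adjusted p = 0.0168), and the adjusted p was 0.061 without null replicate 2, 0.0549 without null replicate 3 and 0.0538 with library size in place of TMM factors.

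*Fdft1*, squalene synthase (chr14:63382189-63417027), commits farnesyl diphosphate to sterols. It was at 114, 112, 101, 122 and 73.2 CPM in wildtype and at 79.9, 51, 54.4 and 56.3 CPM in null. Only null replicate 1 lay above a wildtype library, replicate 5. The difference was -0.79 ± 0.17 on the log2 scale (adjusted p = 0.0165). The adjusted p became 0.0584 without null replicate 2 and 0.0559 without null replicate 3. Its exons share 24.8% of their length with *Ctsb* on the opposite strand, whose own log2 fold change was -0.33 (adjusted p = 0.148).

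*Cyp51* (chr5:4123416-4154751), the demethylase of lanosterol, was at 69.8, 78.9, 70, 65.7 and 53 CPM in wildtype and 50.9, 38.5, 42.4 and 48.3 CPM in null. No null library reached the lowest wildtype library, though null replicate 1 and wildtype replicate 5 were close. It was lower by a log2 fold change of -0.58 ± 0.15 (adjusted p = 0.0351). This call was lost when any of null replicates 2 and 3 or wildtype replicates 1 to 4 was left out, with adjusted p of 0.0718 to 0.109, and also with library size in place of TMM factors (0.0818) or with embryo sex in the model (0.064). Its exons share 21.1% of their length with *Akap9* on the opposite strand, which had a log2 fold change of 0.35 (adjusted p = 0.0922).

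*Dhcr7* (chr7:143376740-143402149), a reductase at the end of the pathway, was at 20.7, 28.8, 29.5, 15.8 and 13.8 CPM in wildtype and 12.4, 11.4, 11.2 and 8.3 CPM in null. The null libraries lay close together below a wide wildtype range. The null level was 0.499 of wildtype, with a 95% interval of the log2 fold change of -1.59 to -0.42 and an adjusted p of 0.0459 that was 0.0597 to 0.121 when any null library or any of wildtype replicates 1 to 3 was left out. It was 0.0841 with library size in place of TMM factors and 0.0747 with embryo sex in the model.

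*Sqle*, squalene epoxidase, was just above the threshold. It was at 79.5, 87.3, 65.7, 70 and 46.8 CPM in wildtype and at 56.6, 40.7, 39.9 and 40.3 CPM in null. Null replicates 2 to 4 were nearly equal and below every wildtype library, and null replicate 1 was not. The difference of -0.65 ± 0.19 on the log2 scale had an adjusted p of 0.0588, which was 0.00535 without wildtype replicate 5, 0.0276 without null replicate 1 and 0.101 to 0.149 without any other single library. It passed under 9 of the 19 alternatives.

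The remaining 6 enzymes did not pass. *Hsd17b7*, a ketosteroid reductase, had a log2 fold change of -0.71 (95% interval -1.66 to 0.24), which was -1.25 without null replicate 1, -0.47 without null replicate 2 and -0.40 without wildtype replicate 2. *Tm7sf2*, a sterol reductase, was at -0.54 (-1.28 to 0.19). The dehydrogenase gene *Nsdhl* and the desaturase gene *Sc5d* were both at -0.35, with intervals of -0.90 to 0.20 and -0.87 to 0.18. *Lss*, lanosterol synthase, was measured more precisely than these, at -0.26 (-0.59 to 0.08). The isomerase gene *Ebp* was at -0.13 (-1.01 to 0.76). None of these 6 intervals excludes 0, and those of *Hsd17b7*, *Tm7sf2* and *Ebp* also include a fall of 1 on the log2 scale.

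Of the control genes, the largest change was in a gene that holds SREBPs back. *Insig1* (chr5:28276315-28283668) encodes an endoplasmic reticulum protein that retains SCAP when sterols are plentiful, and its own gene is a well-known SREBP target. Its level was 50.8, 69.9, 73.2, 58.6 and 36.4 CPM in wildtype and 24.6, 21.7, 26.8 and 15.4 CPM in null. The highest null library was below the lowest wildtype library, which was replicate 5. Its log2 fold change was -1.38 ± 0.23 (adjusted p = 0.00291), and the gene passed in all 19 alternative analyses with adjusted p from 2.94e-07 to 0.014.

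*Insig2*, the paralog of *Insig1*, was at 11, 13.2, 20.1, 14.8 and 12.2 CPM in wildtype and 14.5, 13.2, 19 and 14.4 CPM in null. The groups overlapped through most of their range. Its log2 fold change was 0.10, with a 95% interval of -0.42 to 0.61 that lies above the interval of *Insig1* (-1.87 to -0.89). The ratio of *Insig1* to *Insig2* in FPKM was 3.62 to 6.43 in the wildtype libraries and 1.3 to 2.07 in the null libraries, so *Insig1* was the more abundant of the pair in every library and by a smaller margin in the null lenses.

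The SREBP genes themselves did not pass. *Srebf2*, whose product mainly drives sterol synthesis, was at 207, 190, 163, 170 and 152 CPM in wildtype and 207, 134, 157 and 132 CPM in null. *Srebf1*, whose product mainly drives fatty acid synthesis, was at 76.6, 72.1, 86.2, 60 and 57.8 CPM in wildtype and 71.3, 91.4, 95.6 and 69.4 CPM in null. Both genes overlapped between genotypes. The difference on the log2 scale was -0.16 (95% interval -0.48 to 0.16) for *Srebf2* and 0.22 (-0.11 to 0.55) for *Srebf1*, so neither interval includes a change as large as that of *Insig1*. Per length, *Srebf2* was the more abundant in wildtype lenses, 18.9 ± 2.34 against 12 ± 2 FPKM (SD, n = 5). The counts do not separate the isoforms of *Srebf1*, and they do not show how much SREBP protein was cut or nuclear.

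*Scap*, the escort of SREBPs to the Golgi, had a log2 fold change of -0.20 (95% interval -0.63 to 0.24). *Stard4*, a carrier of cholesterol between membranes, was at 16.6, 18.6, 23.1, 24.8 and 18.6 CPM in wildtype and 17.2, 13.9, 10.7 and 8.01 CPM in null. Null replicate 1 alone lay inside the wildtype range. A log2 fold change of -0.70 ± 0.25 had an adjusted p of 0.131.

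**Figure D2:**
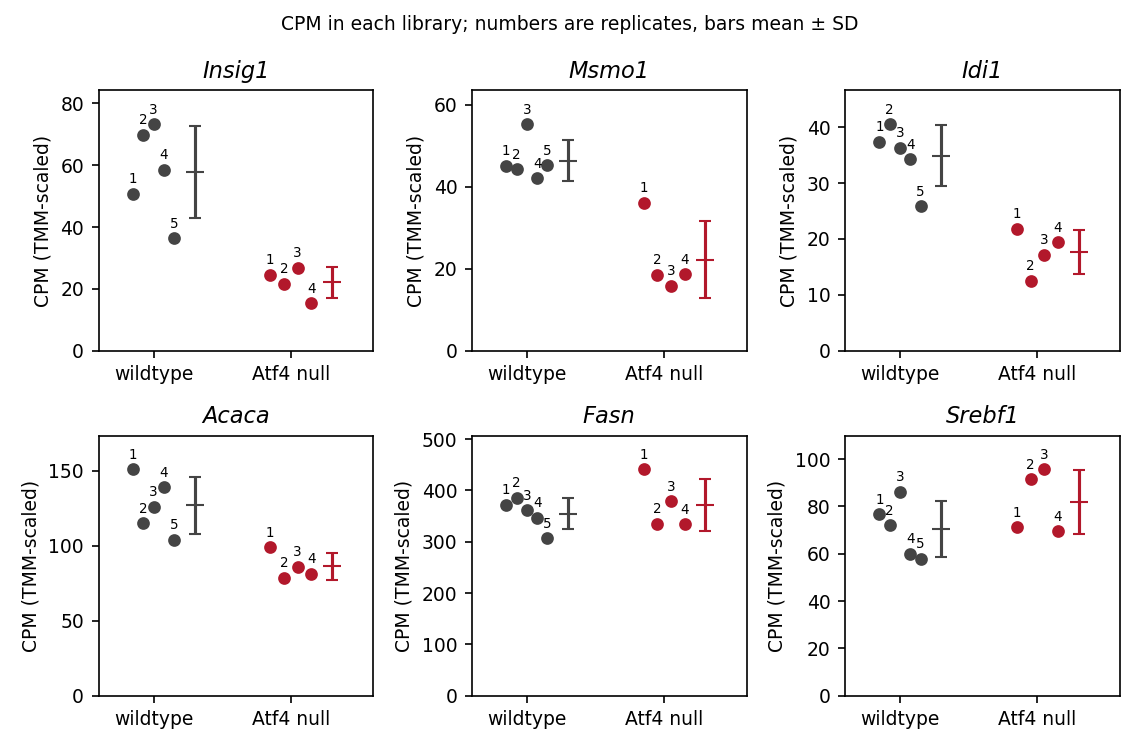
CPM scaled by TMM factors in each library (points, with the replicate number above) for 6 of the genes, with the mean and SD of each genotype beside the points (5 wildtype and 4 *Atf4* null libraries). The null libraries lie below every wildtype library for *Insig1*, *Msmo1*, *Idi1* and *Acaca*, and overlap them for *Fasn* and *Srebf1*.

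In the fatty acid branch 1 of 6 genes was lower at an adjusted p below 0.05, against 3.67% of all genes. A log2 fold change below 0 was found for 4 of the 6. *Acaca* (acetyl-CoA carboxylase, chr11:84020476-84292477) makes malonyl-CoA, the step that commits acetyl-CoA to fatty acids. It was at 151, 115, 126, 139 and 104 CPM in wildtype and 99.1, 78.6, 86.2 and 81.4 CPM in null. The groups did not overlap, with null replicate 1 just under wildtype replicate 5. The difference was -0.56 ± 0.13 on the log2 scale (adjusted p = 0.0233). Leaving out null replicate 2 or 3 or wildtype replicate 1, 3 or 4 gave adjusted p of 0.0548 to 0.0768, and with library size in place of TMM factors it was 0.0822. Without wildtype replicate 5, 3 fatty acid genes were called lower, and 8.33% of all genes were called in either direction against 5.9% with it.

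*Fasn*, fatty acid synthase, uses the malonyl-CoA that *Acaca* supplies. It was at 372, 386, 361, 347 and 307 CPM in wildtype and 441, 335, 379 and 334 CPM in null. The genotypes overlapped, and null replicate 1 was the highest library. Its log2 fold change was 0.07, with a 95% interval of -0.19 to 0.33, among the narrowest of the 30 genes, which lies above that of *Acaca* (-0.84 to -0.27). Within each library, the ratio of *Fasn* to *Acaca* in FPKM was 3.87 to 5.26 in wildtype and 6.45 to 6.99 in null, without overlap.

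The stearoyl-CoA desaturases introduce the bond that makes monounsaturated fatty acids. *Scd2* was by far the most abundant of the 30 transcripts per length, at 164 ± 25.7 FPKM (SD, n = 5) in wildtype. Its libraries were at 1360, 1370, 1280, 1260 and 897 CPM in wildtype and 834, 911, 920 and 980 CPM in null. Wildtype replicate 5 lay within the null range and the other 4 wildtype libraries well above it. The difference of -0.43 ± 0.13 on the log2 scale had an adjusted p of 0.0793, which was 0.00394 without wildtype replicate 5 and 0.0748 to 0.174 without any other single library, and it passed under 4 of the 19 alternatives. *Scd1*, the form typical of liver and fat, was at only 1.28 to 7.07 CPM in wildtype and 2.63 to 19.2 CPM in null, and its log2 fold change of 0.81 (95% interval -0.46 to 2.09) became -0.17 without null replicate 1.

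*Elovl6*, which lengthens palmitate, was at 98, 93.7, 70.7, 87 and 57.3 CPM in wildtype and 39.3, 56.5, 65.4 and 49.4 CPM in null. Wildtype replicate 5 again overlapped the null libraries. Its log2 fold change of -0.63 ± 0.19 had an adjusted p of 0.0689, which was 0.0112 without wildtype replicate 5 and 0.0628 to 0.151 without any other single library, and it passed under 7 of the 19 alternatives. *Acly*, which makes cytosolic acetyl-CoA for both branches, did not pass, at -0.20 (95% interval -0.52 to 0.12).

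The branches were set side by side within each library by the mean, over the genes of a branch, of log2 CPM minus the wildtype mean. For sterol synthesis this mean was -0.28, -0.79, -0.70 and -0.72 in null replicates 1 to 4 and ran from -0.27 to 0.17 in wildtype. For the fatty acid branch it was 0.14, -0.28, -0.30 and -0.37 in the null libraries and -0.09 to 0.11 in wildtype. Null replicate 1 was therefore the highest of the null libraries on both measures. The sterol mean was lower than the fatty acid mean in all 4 null libraries, by 0.42, 0.50, 0.40 and 0.35, and the difference ran from -0.18 to 0.10 in wildtype. The mean difference in null lenses was -0.42 ± 0.06 (SD, n = 4), against a spread in wildtype of 0.11 (SD, n = 5). This separation rested on *Scd1*, the least abundant gene of the branch. Over the other 5 fatty acid genes the branch mean was -0.28, -0.41, -0.25 and -0.47 in null replicates 1 to 4 and -0.27 to 0.18 in wildtype. The sterol mean minus that mean was 0.00, -0.37, -0.45 and -0.26 in the null libraries, a mean of -0.27 ± 0.19 (SD, n = 4), and -0.21 to 0.16 in wildtype. The genotypes overlapped on that measure, since null replicate 1 was equally low in both branches. No test was made of either difference, since the genes of the branches were chosen with results of these libraries known. At the level of single genes the branches were not uniform: *Acaca*, *Elovl6* and *Scd2* had log2 fold changes of -0.56, -0.63 and -0.43, and *Acly*, *Fasn* and *Scd1* of -0.20, 0.07 and 0.81.

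**Figure D3:**
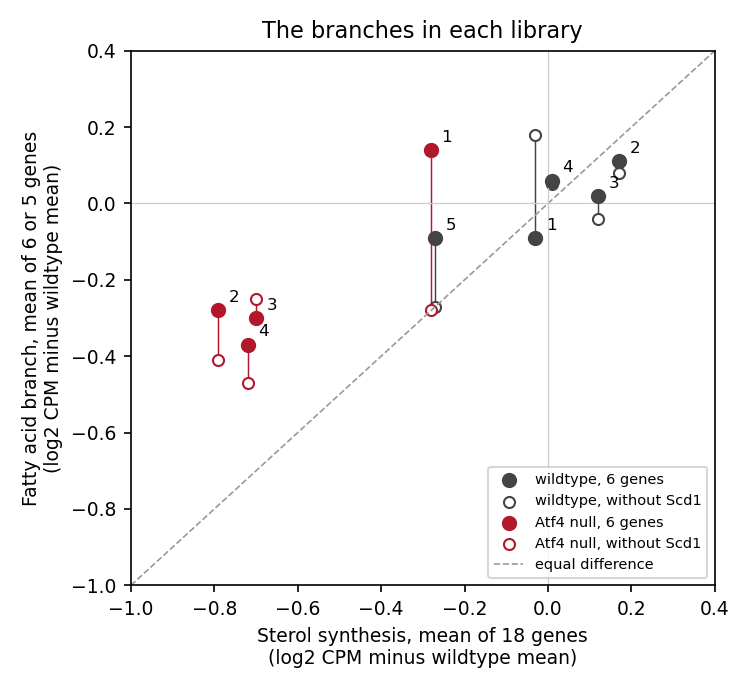
Mean of log2 CPM minus the wildtype mean over the 18 sterol genes (horizontal) and the 6 fatty acid genes (vertical) in each library, with replicate numbers beside the filled points, open points for the fatty acid mean without *Scd1* and a dashed line where the 2 means are equal. With all 6 genes the 4 *Atf4* null libraries lie 0.35 to 0.50 to the left of the line, but without *Scd1* null replicate 1 falls on it, at -0.28 on both axes.

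The same pair of libraries often lay at the edge of its genotype nearest the other. Null replicate 1 was the highest null library for 12 of the 18 sterol genes and for 18 of all 30 genes. Wildtype replicate 5 was the lowest wildtype library for 12 of the 18 and 20 of the 30. Every null library lay below all of wildtype replicates 1 to 4 for 9 sterol genes, against 8.64% of all genes tested, and below all 5 wildtype libraries for 4, against 5.58%. Wildtype replicate 5 also had the lowest wildtype share of lens fiber markers (1.42% against 2.12% to 2.38%), beside its muscle and mesenchyme markers, and null replicate 1 the lowest fiber share of the null libraries (1.09% against 1.51% to 1.99%). Proliferation markers took 0.166% of counts in null replicate 1 and 0.0414% in null replicate 4, and 0.0777% to 0.105% in the other libraries. The part of these markers in the sterol results was not tested. Nor was the part of the lens epithelium, lens fiber, blood cell, vascular endothelium, pigment cell and retina markers. Their log2 fold changes lay mostly or all on one side of 0. Without both of these libraries, a choice made after the values were seen, 8 sterol genes were called lower, 3 fatty acid genes and 2 control genes, while the calls over all genes, in either direction, went from 5.9% to 9%.

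**Figure D4:**
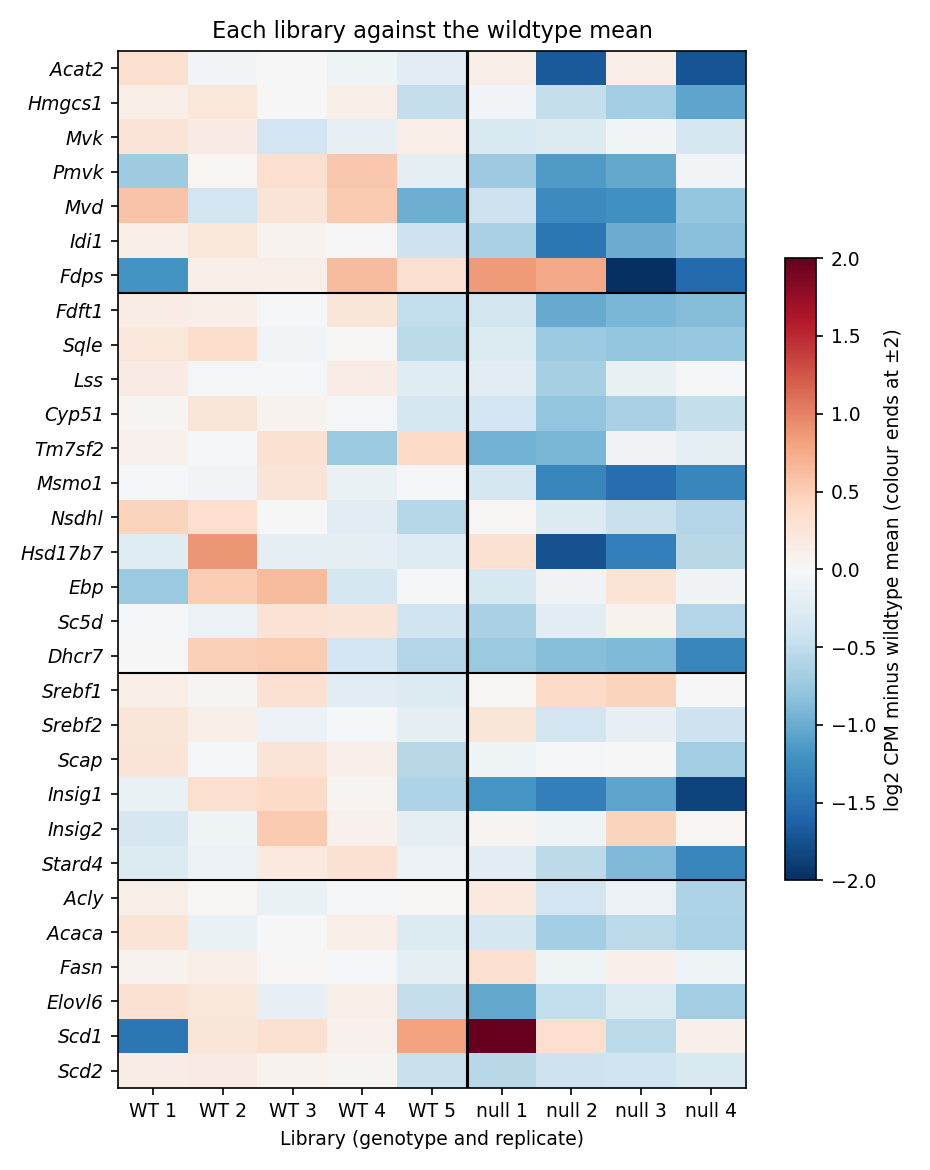
Log2 CPM minus the wildtype mean for each gene (rows, with lines between the mevalonate, squalene to cholesterol, control and fatty acid groups) in each library (columns), in blue where lower and red where higher, with the colour scale ending at ±2. The sterol rows are mostly blue in null replicates 2 to 4 and paler in null replicate 1 and wildtype replicate 5, whose sterol means were -0.28 and -0.27.

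The genes around these pathways were taken as 4 further lists. Of 72 genes in them 68 were tested, 5 were lower, none was higher, and the median log2 fold change was -0.03. Without null replicate 2 or 3 or wildtype replicate 2 or 3 none was called, and 1 or 2 were without null replicate 4 or wildtype replicate 1 or 4. Over all genes tested, 3.67% were called lower, 2.23% higher, and 10.2% were lower at an unadjusted p below 0.05. The share of all genes called in either direction was 5.9%, and 3.41% to 5.43% under these omissions. The 13 tested genes of other sterol synthesis steps and SREBP processing held 3 of the calls, with a median of -0.12. None of the 11 genes that use isoprenoids for other products, such as dolichol, ubiquinone and protein prenyl groups, was called, with 1 at an unadjusted p below 0.05. None of the 13 tested genes of sterol uptake, storage and efflux was called either, again with 1 at an unadjusted p below 0.05. Of 31 other genes of fatty acid synthesis and modification 2 were lower, among them the desaturase family gene *Fads3* at -0.94 ± 0.22 (adjusted p = 0.0252), a gene chosen for mention after its values were seen.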

How the data were processed

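Lens RNA of 5 wildtype and 4 *Atf4* null embryos was sequenced with a stranded low-input kit. The deposited values are raw counts per gene. The authors trimmed reads with Trim Galore, used HISAT2 to discard ribosomal RNA reads and to place the others on GRCm39, and counted them with HTSeq, whose 5 summary entries (44.6% to 47.7% of reads) were left out here. Symbols and lengths came from GENCODE vM39 for 54749 of 55416 genes. Libraries were compared with edgeR 4.0.16 in R 4.3.3 (filterByExpr, TMM factors, glmQLFit, glmQLFTest), with Benjamini-Hochberg adjustment over 14903 genes, a threshold of 0.05 and 95% intervals. The study's own methods used edgeR's exactTest, which is among the alternatives with DESeq2 1.42.0, library size, other filters, sex, a replicate block and the omission of each library. CPM were scaled by TMM factors, FPKM divide them by summed exon length, and branch means used log2 CPM with a prior count of 2. The titles of the wildtype samples name other libraries than their counts do, so wildtype numbers are uncertain and the genotype is not. No 2 of the 9 libraries were repeats (lowest chi-square per degree of freedom 7.7 over 36 pairs). The members and lists were chosen with earlier results of these data known, every member is reported, and not every gene of the further lists is named here.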

Additional observations from a re-analysis of the deposited data

Results flagged for a closer look

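Each of the 30 genes was looked at in both genotypes for a library that stands far from the others, 60 groups in all, of which chance alone would mark about 1 in 20. The marks fell on 7. Null replicate 1 was the highest null library for *Sqle* (56.6 CPM, next 40.7), *Msmo1* (36.1 CPM, next 18.6) and *Scd1* (19.2 CPM, next 5.04). Wildtype replicate 5 was the lowest wildtype library for *Scd2*, the main lens desaturase transcript (897 CPM, next 1260). Wildtype replicate 3 was the highest for *Msmo1* (55.2 CPM, next 45.3) and wildtype replicate 2 for *Hsd17b7* (19.7 CPM, next 9.26). Null replicate 4 was the lowest null library for *Scap* (25.9 CPM, next 39.9). For *Scd1* the far library sets the direction, since the log2 fold change of 0.81 was -0.17 without it. For *Msmo1*, *Sqle* and *Scd2* the direction was the same without it. No cause was tested.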

How the results depend on the processing

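*Insig1* and *Idi1* passed under all 19 alternatives, *Fdft1* under 17, *Msmo1* under 16, *Acaca* under 13, *Cyp51* under 11 and *Dhcr7* under 10, and each kept its direction in all of them. The count of sterol genes called, 5, was 2 with library size, 3 with sex as a covariate, 6 with exactTest, no filter, at least 10 counts in every library or the robust fit, 7 with DESeq2, 8 without both wildtype replicate 5 and null replicate 1, and 1 to 8 over the omission of single libraries. The count of fatty acid genes, 1, was 0 with library size, 2 with exactTest, with no filter or with at least 10 counts in every library, 3 with DESeq2 or without both libraries, and 0 to 3 over single omissions. The count of control genes, 1, was 2 without both libraries and 1 to 1 over single omissions. The count over the further pathway genes, 5, was 1 with library size (a higher gene), 3 with sex as a covariate, and 0 to 7 over single omissions. Library size lost *Cyp51*, *Msmo1*, *Dhcr7* and *Acaca*, and sex lost *Cyp51* and *Dhcr7*. The difference between the branches in null lenses, -0.42, was -0.48 to -0.39 under the other scalings and omissions of libraries, but -0.27 without *Scd1* and -0.28 without *Scd1* and *Fdps*, both added after the values were seen. A scaling factor moves both branch means of a library nearly alike, so the scalings could hardly change this difference. It stayed at -0.42 with library size. Over all genes, 880 calls became 1438 with DESeq2, 1339 without both libraries and 527 to 1207 over single omissions. With library size the median of all genes moved from 0.001 to 0.125, and 64.3% of the calls were higher against 37.8%. The cause of these shifts was not tested.

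Directions reversed only for genes that were never called. *Fdps* was at 0.06 with library size and at -0.68 to 0.29 over single omissions, positive without null replicate 3 (0.29) or 4 (0.22). *Fasn* ran from -0.02 without null replicate 1 to 0.12 over single omissions, and was at 0.21 with library size and at -0.06 without both libraries. *Scd1* ran from -0.17 without null replicate 1 to 1.09, *Insig2* from -0.03 without null replicate 3 to 0.25, and *Ebp* from -0.28 to 0.06, with 0.00 without wildtype replicate 2 and 0.06 without wildtype replicate 3. Same-numbered libraries of the genotypes share only a number, with correlations of their deviations from -0.13 to 0.01 and 0 of 4 best with its own. The replicate block also leaves out wildtype replicate 5, which has no partner. It called 8 sterol genes, 3 fatty acid genes and 873 of all genes, against 8, 3 and 1207 on the same 8 libraries with no block. *Fdps* had only 0 to 18 counts per library, and the cause of this was not tested.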
